A study of Mus musculus with 4 samples.

Results

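The 10 genes described here mark the general capillary (gCap) endothelial cell of the lung: Gpihbp1, Plvap, Kit, Aplnr, Cd93, Sema3c, Glp1r, Lpl, Hilpda and Adgrl3. They were found in the deposited table by symbol, and all 10 are among its 17915 coding genes. Bulk RNA sequencing was done on sorted lung endothelial cells of mice with the genotype Cdh5-CreER;aSMA-LSL-Dre;NR1. Both groups shared that genotype, tamoxifen given 5 times, and transverse aortic constriction (TAC), a narrowing of the aorta that loads the left heart and the lung behind it, with cells studied at 6 weeks. Both groups also shared the endothelial Cdh5 driver of the recombinase. As both had TAC, neither is a group without TAC. The ZsGreen+ group (n = 2 libraries) held endothelial cells in which activity of the alpha smooth muscle actin locus had not been recorded. The tdTomato+ group (n = 2 libraries) held endothelial cells in which that locus had been active, even briefly, and the mark is permanent, so tdTomato+ cells need not have expressed the gene when sorted. The titles call the libraries of each group biological replicates. The labels give no age or sex and do not say whether libraries came from separate mice. The spread behind each p-value is that of these libraries, and how much of it is technical is not known.

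The alveolar wall holds a pair of capillary cell types. General capillary cells line the capillary bed, regulate its tone and handle circulating lipid, and in mice they act as progenitors when capillaries are repaired. Aerocytes (aCap cells) are large, thin cells specialised for gas exchange. In the lipid task GPIHBP1 carries lipoprotein lipase (LPL) across the endothelial cell to the capillary lumen, where the enzyme hydrolyses the triglyceride of lipoproteins. Many of the other genes encode receptors: KIT binds stem cell factor, the apelin receptor (Aplnr) binds apelin made by aerocytes, and GLP1R binds glucagon-like peptide 1.

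Libraries held 17050673 to 18574737 estimated counts over coding genes, and 14969 to 15747 genes had a count. Levels are in CPM, which are counts over TMM-scaled library sizes and which compare 1 gene between libraries but not different genes with each other. Log2 fold changes give tdTomato+ relative to ZsGreen+, with a standard error (SE) from edgeR's quasi-likelihood test, and a gene is called at a Benjamini-Hochberg adjusted p under 0.05. Pan-endothelial markers were well read: Pecam1 stood at 1862 and 1809 CPM in the tdTomato+ libraries, against 2104 and 1940 CPM in the ZsGreen+ pair. Cdh5 stood at 1112 CPM or more in every library. RNA of other cell types was present too. Per length, in deposited TPM, the macrophage marker Lyz2 stood at 7397 and 3482 in tdTomato+ libraries and 3389 and 835 in ZsGreen+ libraries. Pecam1 stood at 986 and 912 TPM against 900 and 977 TPM. All 10 gCap genes were read in every library and all passed the filter on low counts. With 2 libraries against 2, an exact two-sided permutation test cannot go below p = 0.333, so none is given for single genes.

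None of the 10 gCap genes passed edgeR's test over all 13177 genes, where 0.304% of genes were called. The genes nevertheless lay unevenly. Gpihbp1, Sema3c and Glp1r had the lowest values, at 0.386, 0.303 and 0.34 of their ZsGreen+ level, Adgrl3 and Kit were lower by less, and Aplnr, Lpl, Cd93, Plvap and Hilpda had overlapping groups. Both tdTomato+ libraries lay below both ZsGreen+ libraries for 5 of the 10 genes and above them for 0 of 10. Over all genes tested, 18.2% lay below in this way and 19.9% above. The same 5 genes had an unadjusted edgeR p under 0.05, as did 8.76% of all genes in either direction and 3.15% in the lower one. Counted per read of Pecam1, these 5 genes also lay apart. Counted per read of Cdh5, only Gpihbp1 did, and the groups of Sema3c, Glp1r, Adgrl3 and Kit overlapped. DESeq2 called 3 of the 10 (Gpihbp1, Sema3c and Glp1r, all lower) where it called 0.949% of all genes lower, and limma-voom called 0 of 10 where it called 0.25%. The median log2 fold change of the 10 was -0.41, against -0.01 over all genes tested. Because the 10 were chosen with earlier results of these data known, their counts beside these shares are a description and not a test. In bulk samples fewer gCap cells and less RNA per cell cannot be told apart.

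**Figure D1:**
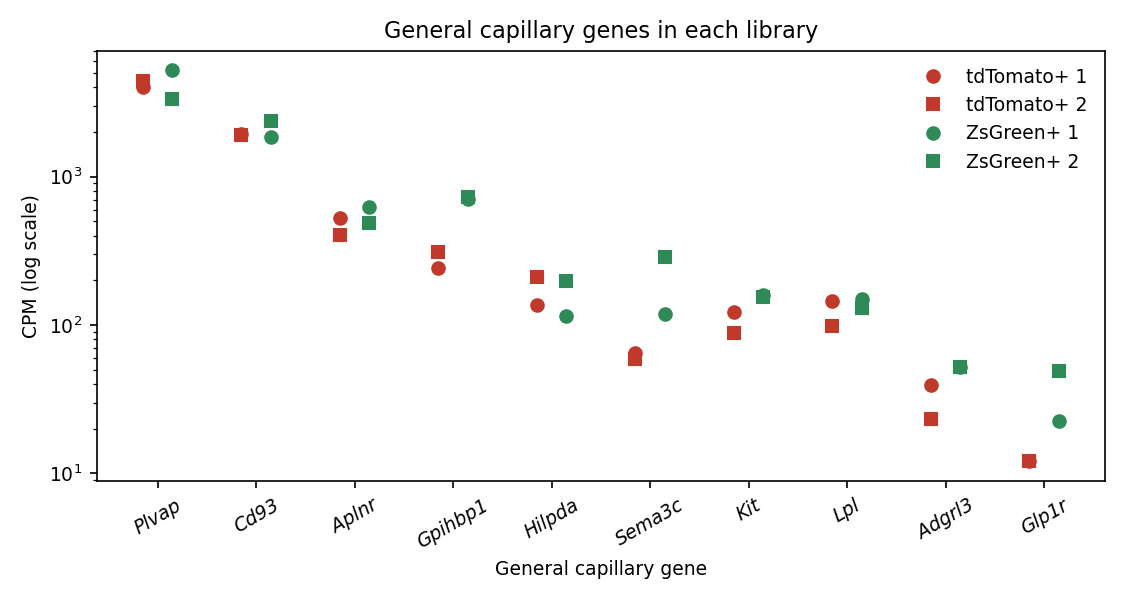
CPM (log scale) of the 10 general capillary genes in each of the 4 libraries, with tdTomato+ in red and ZsGreen+ in green, and replicates 1 and 2 as circles and squares. The groups are apart for Gpihbp1, Sema3c, Kit, Adgrl3 and Glp1r and overlap for the other genes, and heights of different genes are not comparable because CPM is not corrected for transcript length.

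**Figure D2:**
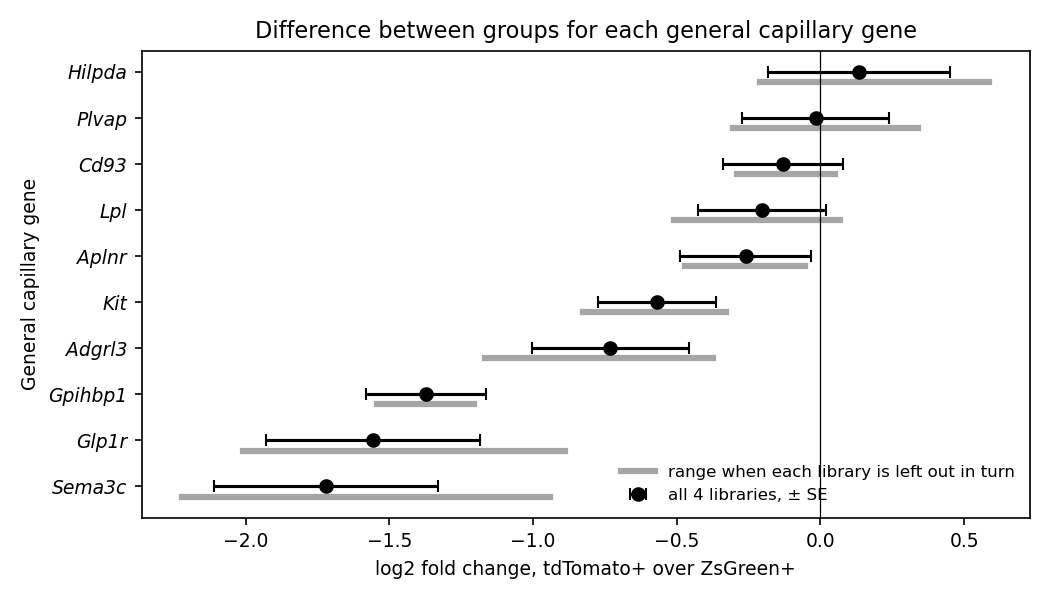
Log2 fold change (tdTomato+ over ZsGreen+) of each general capillary gene with its SE as a black bar, and in grey the range of values when each of the 4 libraries was left out in turn. Gpihbp1 has the narrowest grey range of the lowest 3 genes, from -1.54 to -1.21, while the ranges of Plvap, Cd93, Lpl and Hilpda cross 0.

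Among the lipid genes the capillary anchor was lower in tdTomato+ cells while its cargo was not clearly so. Gpihbp1 (NCBI Gene 68453, chromosome 15, positions 75596630 to 75598213, GRCm38) stood at 243 and 313 CPM in the tdTomato+ libraries, against 709 and 729.7 CPM in the ZsGreen+ pair. The groups were well apart, and the ZsGreen+ libraries differed from each other by a factor of only 1.03. The fitted difference was -1.37 log2 units (SE 0.21, edgeR adjusted p = 0.0796), the smallest p of the 10 genes. When each library was left out in turn, the difference ranged from -1.544 to -1.205. The adjusted p depended on the method, at 3.57e-08 with DESeq2, 0.0637 with limma-voom and 0.0159 with edgeR without a filter on low counts. In a fit that leaves out a library the lone library of its group is assumed to vary like the other pair, here and in all such fits. Lpl, the lipase itself (chromosome 8, positions 68880555 to 68906932), stood at 144 and 98.2 CPM against 149 and 130.3 CPM. Its groups overlapped, at a log2 difference of -0.20 (SE 0.22), and without tdTomato+ replicate 2 it was 0.07. Per length, in deposited TPM, Gpihbp1 exceeded Lpl by 10.5 and 19.6 times in tdTomato+ libraries and by 29.4 and 34.8 times in ZsGreen+ libraries. That ratio is taken within a library and does not depend on scaling between libraries, and its groups did not overlap. Counted per read of Pecam1, Gpihbp1 stood at 0.131 and 0.173 against 0.337 and 0.376, again without overlap, and per read of Cdh5 at 0.135 and 0.281 against 0.293 and 0.497, where the groups nearly touched.

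Lpl is also made by macrophages, alveolar type 2 cells and adipocytes, and markers of the first pair were present. Summed over 7 macrophage markers the level was 5211 and 2421 CPM in the tdTomato+ libraries against 2859 and 595 CPM in the ZsGreen+ pair, which overlap, with Lyz2, lysozyme, the most abundant. Summed over 5 alveolar type 2 markers it was 381 and 444 CPM against 241 and 119 CPM, which do not overlap, and Sftpc, surfactant protein C, had the most reads. Of the adipocyte markers Adipoq had 0 counts in every library, which allows up to 0.157 to 0.19 CPM by library for counting error alone. Cidec, a lipid droplet protein on the adipocyte list, had reads, at 5.34 and 6.88 CPM in the tdTomato+ libraries and 3.48 and 1.81 CPM in the other pair, without overlap (1.21 in log2, SE 0.47, not called). Of the macrophage genes Plet1 (1.55, SE 0.45) and Adgre1 (1.13, SE 0.58) lay higher in both tdTomato+ libraries and Marco (1.90, SE 0.74) overlapped, and among alveolar type 2 genes Sftpb (1.36, SE 0.24) and Sftpa1 (0.88, SE 0.34), both surfactant proteins, lay higher, none of them called. The part of these cells in the Lpl reads was not tested.

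The partners of the lipase did not move as a block. Of 17 genes of the axis 12 could be tested, and edgeR called 0 of them. In both tdTomato+ libraries 3 lay lower and 4 higher, and 5 had an unadjusted edgeR p under 0.05. Over all genes tested 18.2% lay lower, 19.9% lay higher and 8.76% had such a p. These shares also stand beside the counts of each list below. The median log2 fold change of the 12 was 0.29. It lay between 0.105 and 0.174 without tdTomato+ replicate 1 or 2 or ZsGreen+ replicate 1. Over the 73 genes tested from this and the other 10 lists of partners described here, edgeR and limma-voom called 0, whereas DESeq2 called 9: Cd36, Fabp4, Sema3a, Sema3d, Plxna1, Dpp4, Flrt3, Bnip3 and Ankrd37. DESeq2 called 2.5% of all genes. Without ZsGreen+ replicate 1 edgeR called 10 of the 73 and 2.21% of all genes, and without ZsGreen+ replicate 2 it called 0 of the 73 and 0.19% of all genes. Cd36, a scavenger receptor that takes up fatty acids, stood at 567 and 638 CPM in the tdTomato+ libraries against 937 and 1475 CPM in the ZsGreen+ pair, a log2 difference of -1.002 (SE 0.26). Fabp4, an intracellular fatty acid carrier, went the opposite way at 39.1 and 74.1 CPM against 13.2 and 8.93 CPM (2.35 in log2, SE 0.36, edgeR adjusted p = 0.0819). Lrp1, a receptor that clears lipoprotein remnants, had a log2 fold change of 1.29 (SE 0.43). The part of other cell types in the Fabp4 and Lrp1 reads was not tested. Lmf1, the factor that folds LPL, and Angptl4, a secreted inhibitor of LPL, are named after their values were seen, at -0.46 (SE 0.19) and 0.50 (SE 0.63). Thus the uptake receptor and the anchor were lower, and the carrier higher, in tdTomato+ libraries, with no edgeR call for any of the 3.

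Sema3c and Glp1r had the lowest log2 fold changes of the 10 genes and shared a pattern across the libraries. Sema3c (chromosome 5, positions 17574816 to 17730268) encodes semaphorin 3C, a secreted guidance protein that signals through neuropilins and plexins. It stood at 64.4 and 59 CPM in the tdTomato+ libraries, against 118 and 288 CPM in the ZsGreen+ pair. The tdTomato+ libraries were close to each other, while ZsGreen+ replicate 2 was 2.44 times replicate 1. The fitted difference was -1.72 log2 units (SE 0.39, edgeR adjusted p = 0.201). It was -0.94 without ZsGreen+ replicate 2 and -2.22 without ZsGreen+ replicate 1, with the higher of the ZsGreen+ libraries then standing alone for its group. Glp1r (NCBI Gene 14652) stood at 12.1 and 12.2 CPM in the tdTomato+ libraries, against 22.4 and 48.9 CPM in the ZsGreen+ pair. It was the least read of the 10, with 219 to 892 counts per library, and ZsGreen+ replicate 2 was 2.18 times replicate 1. The fitted difference was -1.56 log2 units (SE 0.37, edgeR adjusted p = 0.219), with -0.89 without ZsGreen+ replicate 2 and -2.01 without ZsGreen+ replicate 1. The adjusted p depended on the method, at 0.000506 for Sema3c and 0.00767 for Glp1r with DESeq2, and 0.22 and 0.293 with limma-voom. In all 13 alternatives for each gene the direction was the same.

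Of the 8 lymphatic markers 3 showed a like difference between the ZsGreen+ libraries. Prox1, the transcription factor that specifies lymphatic endothelium, was picked with its values known and stood at 6.9 and 17.9 CPM in ZsGreen+ replicates 1 and 2 and at 4.13 and 3.78 CPM in tdTomato+ cells. Reln, reelin, stood at 28.9 and 63 CPM against 4.29 and 5.72 CPM, and Mmrn1, multimerin 1, at 74.5 and 161 CPM against 15.8 and 11.7 CPM. The other 5 did not reach a ratio of 2 between ZsGreen+ replicates 2 and 1: it was 1.46 for Lyve1, the hyaluronan receptor and most abundant of the list, 1.27 for Fxyd6, 1.24 for Thy1, 0.901 for Pdpn and 0.883 for Flt4 (the last pair named after their values were seen). Among genes that averaged 5 CPM or more, a ratio of 2 or more was seen in 3.52%, and 23 of those 365 genes were also lower in both tdTomato+ libraries. That is 6.3%, where 18.2% of all genes tested lay lower in both. The 23 hold 6 genes of the lists used here: Sema3c, Glp1r, Prox1, Reln, Mmrn1 and Dpp4. Sema3d and Flrt3, which averaged under 5 CPM and are not lymphatic markers, had ratios of 3.12 and 2.61. They too were lower in both tdTomato+ libraries. Such ratios were also seen in listed genes that are not lymphatic and whose groups overlapped. Among them, picked with their values known, were Kitl (3.42), Hmcn1 (2.71), Marco (2.54), Angptl4 (2.41) and Cav2 (2.05). This ratio was examined after the values were seen. The part of lymphatic cells in the Sema3c and Glp1r reads was not tested. Gpihbp1 and Kit, with ratios of 1.03 and 0.964, did not share the pattern.

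**Figure D3:**
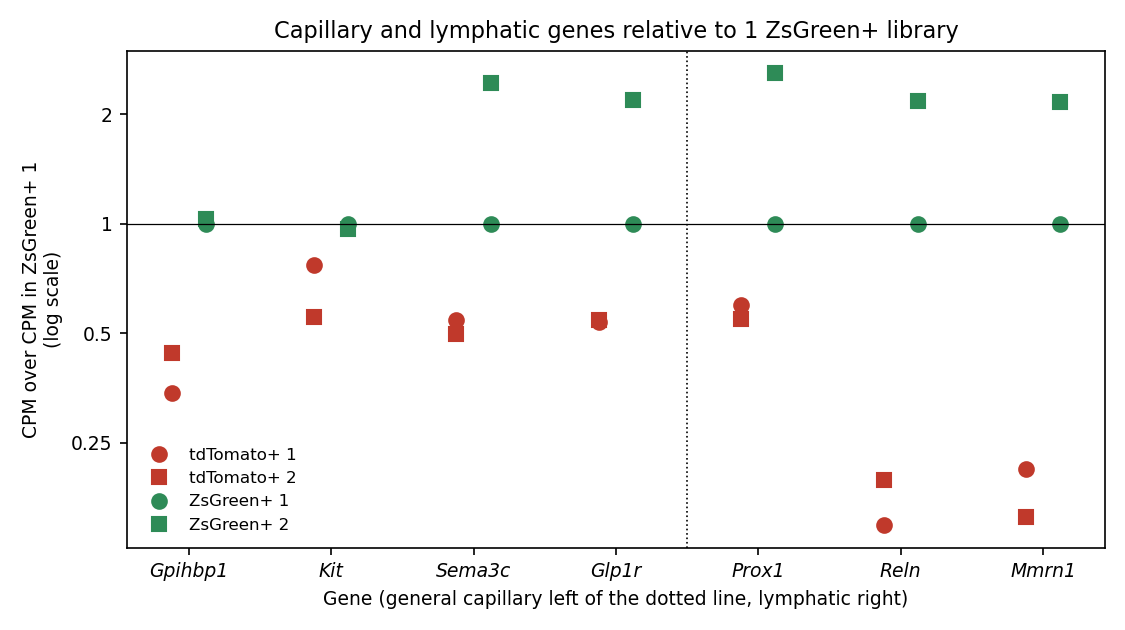
CPM of 4 general capillary genes and 3 lymphatic genes in each library divided by the CPM of the same gene in ZsGreen+ replicate 1 (log scale), with tdTomato+ in red, ZsGreen+ in green, and replicates 1 and 2 as circles and squares. ZsGreen+ replicate 2 lies 2.17 to 2.59 times above replicate 1 for the lymphatic genes shown. It lies 2.44 and 2.18 times above it for Sema3c and Glp1r, while Gpihbp1 and Kit lie at 1.03 and 0.964. The lymphatic genes shown are those of the 8 markers with a ratio of 2 or more, and the rest ranged from 0.883 to 1.455.

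The sequences before the start sites of Sema3c and Glp1r are shown because these genes shared a pattern across libraries, and that of Kit because it was the remaining lower gene with a RefSeq window at the deposited start. Each is the 250 bases before the start, 5′ to 3′ on the gene's strand (the plus strand for all 3), from RefSeq on GRCm38.p6. Capitals mark every match on either strand to 5 short motifs, and a match on the minus strand is printed as its reverse complement. The motif searched for ETS factors, a family active in endothelium, was AGGAAG. The motif searched for the SOX family was AACAAT, and the one for zinc finger factors of the GATA family was AGATAA. The Krüppel-like factors (KLF), some of which respond to blood flow, were searched as CACCC, and the hypoxia-inducible factors, regulators of Hilpda among others, as ACGTG. The Sema3c window is chr5:17574566-17574815, that of Glp1r chr17:30901617-30901866 and that of Kit chr5:75574737-75574986.
Sema3c: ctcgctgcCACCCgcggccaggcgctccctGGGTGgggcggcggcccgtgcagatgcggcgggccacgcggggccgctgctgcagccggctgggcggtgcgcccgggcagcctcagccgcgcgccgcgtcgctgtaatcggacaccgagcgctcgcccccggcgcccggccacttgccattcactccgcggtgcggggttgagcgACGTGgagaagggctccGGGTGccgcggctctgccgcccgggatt
Glp1r: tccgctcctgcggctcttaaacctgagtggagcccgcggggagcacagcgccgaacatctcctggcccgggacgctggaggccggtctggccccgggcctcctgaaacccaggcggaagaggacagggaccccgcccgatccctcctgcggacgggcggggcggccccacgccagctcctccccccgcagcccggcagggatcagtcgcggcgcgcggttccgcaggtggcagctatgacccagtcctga
Kit: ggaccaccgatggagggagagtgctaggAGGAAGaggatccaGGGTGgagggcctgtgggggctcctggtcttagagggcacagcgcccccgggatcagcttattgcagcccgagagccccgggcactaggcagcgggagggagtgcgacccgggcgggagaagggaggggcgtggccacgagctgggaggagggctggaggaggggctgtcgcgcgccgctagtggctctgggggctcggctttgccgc

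The Sema3c window held 3 matches to CACCC and 1 to ACGTG, the Kit window 1 each to AGGAAG and CACCC, and the Glp1r window none of the 5 motifs. In the same 250 bases of 14113 genes, CACCC occurred in 57.4%, AGGAAG in 28.8%, ACGTG in 19.6%, AGATAA in 7.03% and AACAAT in 5.92% of windows. A match is a string of letters and not a measured site. The windows were rich in G and C, at 78.4% for Sema3c, 73.2% for Glp1r and 70.8% for Kit, with 39, 26 and 17 CG pairs. Windows of 5 of the 10 genes were matched by identifier (Kit, Sema3c, Glp1r, Hilpda and Adgrl3), and the RefSeq start site that the Adgrl3 window precedes lay 1486 bases from the deposited start.

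No receptor for semaphorin 3C was called. Of 7 neuropilin and plexin genes edgeR called 0, 1 had an unadjusted p under 0.05, and the median log2 fold change was 0.21, which was 0.046 without tdTomato+ replicate 1 and 0.328 without tdTomato+ replicate 2. Plxna1, plexin A1, was the lower one at -0.77 (SE 0.20), and Plxnd1, the plexin of endothelium, stood at 333 and 397 CPM in the tdTomato+ libraries against 300.1 and 267 CPM in the ZsGreen+ pair (0.36, SE 0.19). Plxna3, plexin A3, was little read, at 1.38 and 1.68 CPM against 0.38 and 0.712 CPM, with both tdTomato+ libraries above (1.46, SE 0.69). Per length, Sema3c stood at 0.175 and 0.177 of the TPM of Nrp1 (neuropilin 1, named after its value was seen) in tdTomato+ libraries and at 0.327 and 0.726 in ZsGreen+ libraries. Of 6 other class 3 semaphorins edgeR also called 0, with 2 at an unadjusted p under 0.05 and a median of -0.22 that was -1.146 without tdTomato+ replicate 2. Sema3a, a repellent for axons and vessels, had the lowest value at -2.72 (SE 0.46, edgeR adjusted p = 0.101), from 10.1 and 16.4 CPM in ZsGreen+ cells to 2.59 and 1.42 CPM. Sema3d stood at -2.42 (SE 0.65), with 19 and 20 counts in the tdTomato+ libraries, and Sema3f, the most abundant of the family here, at -0.40 (SE 0.20). Sema3c was thus not the only secreted semaphorin with both tdTomato+ libraries below both ZsGreen+ libraries. That order was shared by 3 of the 6 others and by 18.2% of all genes tested.

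Around Glp1r, the enzyme that cuts its ligand varied with it. Dpp4, dipeptidyl peptidase 4, stood at 10.1 and 10.3 CPM in the tdTomato+ libraries, against 22.2 and 50.3 CPM in the ZsGreen+ pair, with a log2 fold change of -1.83 (SE 0.39, edgeR adjusted p = 0.172). Per length, Dpp4 stood at 0.263 to 0.338 of the TPM of Glp1r in every library, a narrow range beside the change in each gene. The related receptors Gcgr and Glp2r had 0 counts in every library, and Gipr, the receptor for gastric inhibitory polypeptide, at most 0.55 CPM; these 3 are named after their values were seen. Gnas, the G protein subunit that GLP1R couples to, had a log2 fold change of -0.25 (SE 0.21). Of the 2 genes of this list that could be tested, edgeR called 0, and 1 had an unadjusted p under 0.05.

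Kit and Aplnr, receptors on the gCap surface, were less displaced than Gpihbp1. Kit (chromosome 5, positions 75574987 to 75656722), the receptor for stem cell factor, stood at 123 and 88.6 CPM in the tdTomato+ libraries, against 160 and 154 CPM in the ZsGreen+ pair. The groups did not overlap, and the fitted difference was -0.57 log2 units (SE 0.20, edgeR adjusted p = 0.467). Per read of Pecam1 the groups were also apart, while per read of Cdh5 they overlapped, at 0.0683 and 0.0796 against 0.066 and 0.105. The direction held in all 13 alternatives, from -0.83 to -0.33. Mast cells also express KIT, and of 5 mast cell markers in the table Cpa3, Ms4a2 and Tpsb2 had 0 counts in every library; the 5 summed to 2.37 and 4.62 CPM in the tdTomato+ libraries against 1.01 and 0.822 CPM in the ZsGreen+ pair, nearly all from Mcpt4.

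Kitl, which encodes stem cell factor, ranged within groups more than between them, at 51.8 and 81.6 CPM in the tdTomato+ libraries, against 41.8 and 143 CPM in the ZsGreen+ pair (-0.47, SE 0.52), and its value turned to 0.67 without ZsGreen+ replicate 2. Of 7 genes of KIT signalling edgeR called 0, and 0 had an unadjusted p under 0.05. Lyn, a Src family kinase, stood at -0.38 (SE 0.17) and Ptpn6, the phosphatase SHP-1 known from blood cells, at 1.09 (SE 0.54). The median over the 7 was 0.00 on the log2 scale and lay between -0.105 and 0.14 when single libraries were left out.

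Aplnr (chromosome 2, positions 85136360 to 85139923), the apelin receptor, stood at 527 and 402 CPM in the tdTomato+ libraries, against 625 and 488 CPM in the ZsGreen+ pair. Its groups overlapped, and the fitted difference was -0.26 log2 units (SE 0.23, edgeR adjusted p = 0.854). Its ligand gene Apln, an aerocyte marker, lay lower in both tdTomato+ libraries, at 122 and 127 CPM against 169 and 193 CPM (-0.54 in log2, SE 0.17, edgeR adjusted p = 0.381). Per length, Apln stood at 0.264 and 0.361 of the TPM of Aplnr in tdTomato+ libraries and at 0.308 and 0.452 in ZsGreen+ libraries, so the ratio of ligand to receptor overlapped between groups. Mme, a peptidase gene on the same list, was too low to test, and Apela is not analysed here.

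Plvap and Cd93 had overlapping groups. Plvap (chromosome 8, positions 71497753 to 71511806), the protein of the diaphragms that bridge caveolae and fenestrae, stood at 4022 and 4437 CPM in the tdTomato+ libraries, against 5206 and 3351 CPM in the ZsGreen+ pair. The tdTomato+ libraries lay between those of the other group, and the log2 fold change was -0.02 (SE 0.26), with values from -0.30 to 0.34 when single libraries were left out. The caveolar scaffold had edgeR calls for 0 of 7 genes, 0 at an unadjusted p under 0.05, groups that overlapped for all 7 and a median of -0.15, which was 0.036 without ZsGreen+ replicate 2, -0.034 without tdTomato+ replicate 1 and -0.322 without ZsGreen+ replicate 1. Cav1, caveolin 1, stood at -0.26 (SE 0.22), Cav2 at -0.28 (SE 0.33) and Ehd2, an ATPase of the caveolar neck, at -0.16 (SE 0.20).

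Cd93 (NCBI Gene 17064), a lectin-like receptor that binds multimerin 2 in the vessel wall, stood at 1944 and 1898 CPM in the tdTomato+ libraries, against 1851 and 2356 CPM in the ZsGreen+ pair, a log2 difference of -0.13 (SE 0.21). The groups overlapped. Of 7 partners and relatives edgeR called 0, 3 had an unadjusted p under 0.05, and the median was -0.23, which was 0.012 without ZsGreen+ replicate 1 and -0.08 without ZsGreen+ replicate 2. Mmrn2, multimerin 2, lay higher in both tdTomato+ libraries at 317 and 445 CPM against 243 and 259 CPM (0.60 in log2, SE 0.22). Thbd, thrombomodulin, a relative that switches thrombin to an anticoagulant role, lay lower (-0.47, SE 0.19). Cd248, a relative known from fibroblasts and pericytes, stood at 4.9 and 11.6 CPM against 1.96 and 2.68 CPM (1.82 in log2, SE 0.52). Beside it, the sum of 6 fibroblast markers was 204 and 363 CPM in the tdTomato+ libraries against 76.5 and 92.6 CPM in the ZsGreen+ pair, and their part in Cd248 was not tested. Pi16 (2.49, SE 0.43), Col3a1 (1.65, SE 0.34), Col14a1 (1.56, SE 0.43) and Col1a1 (1.59, SE 0.45) lay higher in both tdTomato+ libraries without a call. Col1a1 had the highest mean CPM of the fibroblast markers. Mural cell markers summed to 13.7 and 16.8 CPM in the tdTomato+ libraries and 7.4 and 10.1 CPM in the other pair, with Pdgfrb at 1.11 (SE 0.41), Myh11 at 0.63 (SE 0.48) and Rgs5 at 0.69 (SE 0.73), and of the innate lymphoid markers Gata3 stood at -0.07 (SE 0.21) and Areg at 0.84 (SE 1.10).

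Hilpda was the only gene of the 10 with a log2 fold change above 0. It encodes a hypoxia-induced inhibitor of the triglyceride lipase ATGL and spans positions 29272488 to 29275449 of chromosome 6. It stood at 136 and 209 CPM in the tdTomato+ libraries, against 115 and 199.5 CPM in the ZsGreen+ pair. In both groups replicate 2 was higher, by 1.54 and 1.74 times, and the groups overlapped. The log2 fold change was 0.13 (SE 0.32), and it turned to -0.19 without tdTomato+ replicate 2 and to -0.21 without ZsGreen+ replicate 1. Of 9 lipid droplet genes edgeR called 0, and 0 had an unadjusted p under 0.05, with a median of 0.01 (-0.008 to 0.116 when single libraries were left out). Mgll, monoglyceride lipase, stood at -0.50 (SE 0.23), Abhd5, the activator of ATGL, at -0.16 (SE 0.18) and Dgat2, a triglyceride synthase with few reads, at 1.39 (SE 0.62).

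Other hypoxia targets had a median below 0, and no test compared them with Hilpda, whose groups overlapped. Of 9 such genes edgeR called 0, 2 had an unadjusted p under 0.05, and the median log2 fold change was -0.37 (-0.166 and -0.586 when tdTomato+ replicates 2 and 1 were omitted, -0.245 when ZsGreen+ replicate 2 was), with 5 lower and 1 higher in both tdTomato+ libraries. Bnip3, a mitophagy receptor, stood at 54.3 and 53.2 CPM in the tdTomato+ libraries, against 84.3 and 113 CPM in the ZsGreen+ pair (-0.88, SE 0.20). Ankrd37 stood at -1.10 (SE 0.28) on the log2 scale and Vegfa, the endothelial growth factor, at -0.37 (SE 0.19).

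Adgrl3 (chromosome 5, positions 81019085 to 81827825), latrophilin 3, is an adhesion receptor that binds FLRT proteins and teneurins. It stood at 39.5 and 23.2 CPM in the tdTomato+ libraries, against 51.8 and 52.1 CPM in the ZsGreen+ pair. The ZsGreen+ libraries differed by a factor of 1.005 while the tdTomato+ libraries differed, and the groups did not overlap. The fitted difference was -0.73 log2 units (SE 0.27, edgeR adjusted p = 0.492), -0.38 without tdTomato+ replicate 2 and -1.17 without tdTomato+ replicate 1. In GENCODE M21, 8.91% of its exon bases are shared with Gm16054 on the opposite strand, and no exon base of the other 9 genes is shared with another gene.

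The family and ligands of latrophilin 3 were mixed. Of 6 genes tested edgeR called 0, 3 had an unadjusted p under 0.05, and the median was -0.15, which was 0.144 without ZsGreen+ replicate 2 and -0.358 without ZsGreen+ replicate 1. Adgrl1, latrophilin 1, stood at 75 and 76.3 CPM in the tdTomato+ libraries against 109.6 and 116 CPM in the ZsGreen+ pair (-0.58, SE 0.16). The ligands went in opposite directions, with Flrt3 at -2.08 (SE 0.56) and Flrt2 at 0.94 (SE 0.32), both at or under 11.2 CPM in every library. The teneurin gene Tenm3, picked with its values known, ranged from 3.42 to 6.27 CPM, and Tenm2 and Tenm4 were too low to test.

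Levels of different genes were compared per length, in the deposited TPM. In ZsGreen+ cells Plvap led with 3725 and 2837 TPM, followed by Gpihbp1 with 1492 and 1820.4 TPM, Cd93 with 378 and 567 TPM, Hilpda with 186 and 387 TPM and Aplnr with 243 and 224 TPM. Plvap, Gpihbp1 and the genes after them did not overlap, whereas Cd93 overlapped Hilpda, and Hilpda overlapped Aplnr. Lpl (50.8 and 52.4 TPM) lay above Kit (42.2 and 48 TPM), while Sema3c (32.7 and 93.9 TPM) and Glp1r (22.6 and 58.6 TPM) spanned both and had no clear place, and Adgrl3 was lowest at 7.66 and 9.02 TPM. In tdTomato+ cells the first 5 places held the same genes. Plvap stood at 3572 and 3743 TPM, Gpihbp1 at 636 and 771 TPM and Cd93 at 491 and 456 TPM, and these did not overlap. Hilpda, at 277 and 403 TPM, lay above Aplnr, at 254 and 184 TPM. Lpl (60.8 and 39.4 TPM) and Kit (40.1 and 27.5 TPM) overlapped, and below them came Sema3c (22 and 19.2 TPM), Glp1r (15.2 and 14.5 TPM) and Adgrl3 (7.24 and 3.92 TPM), each apart from the next. Gpihbp1 stood second in every library, but relative to Plvap it was 0.178 and 0.206 in tdTomato+ cells and 0.401 and 0.642 in ZsGreen+ cells.

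Set beside other endothelial lists, the gCap genes lay, by their median, between the aerocyte and the pan-endothelial genes. The median log2 fold change of 11 aerocyte markers was -0.92, with 9 lower in both tdTomato+ libraries and 1 that fell, Prx, the scaffold protein periaxin (-1.74, SE 0.20, edgeR adjusted p = 0.0304). Tbx2 (-1.68, SE 0.29) and Car4 (-1.11, SE 0.23) were not called, and Kdr, the VEGF receptor, stood at -0.37 (SE 0.20). The TPM of Car4 stood at 0.041 to 0.066 of that of Gpihbp1 in every library, with overlapping groups. The 5 other gCap markers had a median of 0.13, which turned to -0.24 with tdTomato+ replicate 2 left out and to -0.147 with ZsGreen+ replicate 1 left out, and stood at 0.438 in the fit lacking ZsGreen+ replicate 2. Clec1a, a C-type lectin, lay lower (-0.65, SE 0.23) and Ptprb, the phosphatase VE-PTP, higher (0.38, SE 0.19), with Cadm1, an adhesion protein, at -0.56 (SE 0.31) and at -0.001 without ZsGreen+ replicate 2, none of them called. Pan-endothelial markers had a median of -0.14 over 7 genes, among which Cldn5, a tight junction protein, stood at -0.84 (SE 0.22), Egfl7 at -0.46 (SE 0.24) and Emcn at 0.30 (SE 0.18). No test compared the lists with each other.

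Venous and lymphatic genes lay outside that range on either side. Venous markers had a median of 1.47 over 7 genes, of which Vcam1, Cpe and Car8 rose, and none lay lower. Lymphatic markers had a median of -2.21 over 8 genes, of which Thy1, Fxyd6, Mmrn1 and Reln fell. Vwf, von Willebrand factor and the venous marker with the highest mean CPM, stood at 1.47 (SE 0.25) without a call, and Lyve1 at 0.42 (SE 0.31), with overlapping groups. Arterial markers had a median of -0.15 over 9 genes, of which Mgp rose, and the median turned to 0.184 without tdTomato+ replicate 1, 0.136 without ZsGreen+ replicate 1 and 0.101 on TPM. Gja5, connexin 40 (2.01, SE 0.33), and Fbln5, fibulin 5 (1.66, SE 0.31), lay higher in both tdTomato+ libraries without a call. Cxcl12, with the highest mean CPM of the list, stood at -0.18 (SE 0.21), but in TPM Mgp exceeded it in every library. These calls rested on few libraries. The aerocyte call was lost without tdTomato+ replicate 1 or 2, and all 3 venous calls were lost in the same fits, with 1 left without ZsGreen+ replicate 2 and 5 without ZsGreen+ replicate 1. Of the 4 lymphatic calls, leaving out tdTomato+ replicate 1 left 1 and leaving out its partner left 0, whereas 5 genes were called when ZsGreen+ replicate 1 was omitted and 3 when the other one was. The arterial call was lost without tdTomato+ replicate 2. Over all genes tested, omitting tdTomato+ replicate 1 left 0.126% called and omitting its partner 0.0295%.

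**Figure D4:**
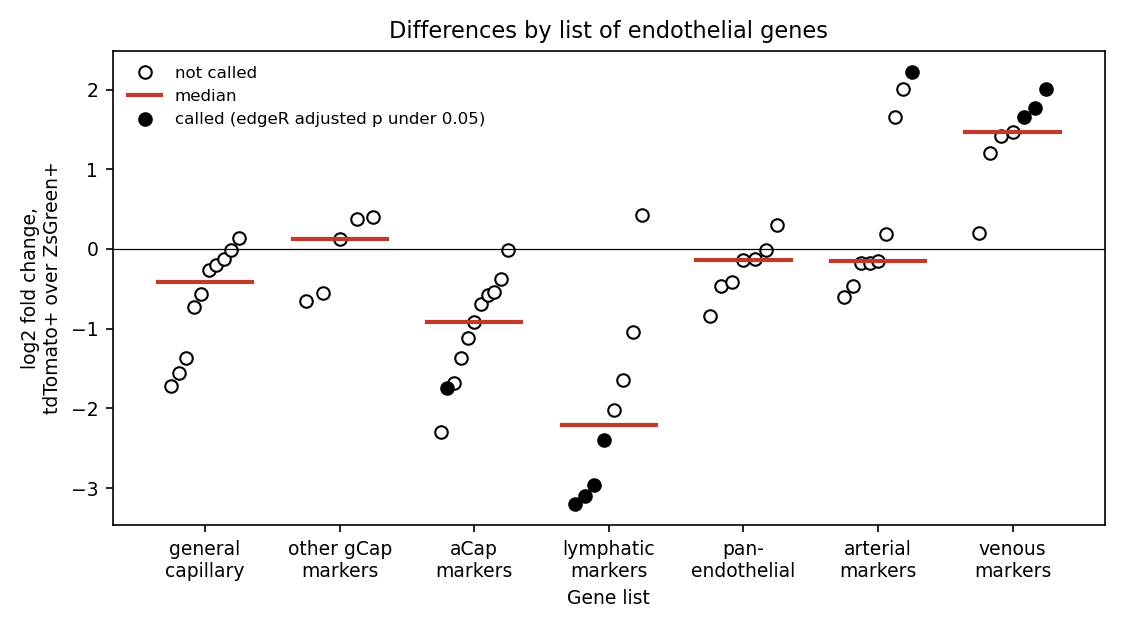
Log2 fold change (tdTomato+ over ZsGreen+) of each tested gene in 7 endothelial lists, with filled points for genes called by edgeR and red bars for medians. No general capillary gene is filled, their median of -0.41 lies between -0.92 for aerocyte and -0.14 for pan-endothelial markers, and venous markers lie highest at 1.47.

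The genes whose levels ran closest to Gpihbp1 over the 4 libraries were Rprml, Prss12 and C1qtnf2, by Euclidean distance between log2 CPM centred on each gene's mean, out of 9958 other genes that averaged 5 CPM or more. Their distances were 0.115, 0.21 and 0.213. Rprml, which is among the aerocyte markers, stood at 5.5 and 7.88 CPM in the tdTomato+ libraries, against 17.3 and 17.2 CPM in the ZsGreen+ pair. Prss12, a secreted serine protease, stood at 14.4 and 18.2 CPM against 38.5 and 48.5 CPM, and C1qtnf2, a secreted relative of adiponectin, at 2.48 and 3.83 CPM against 7.34 and 8.22 CPM. With 4 libraries such likeness is a description only.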

How the data were processed

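Total RNA of the sorted cells (RNeasy Micro) was put through whole-transcriptome amplification before libraries for MGI instruments were built, per the labels' protocols. The submitters' processing notes name RSEM 1.3.1 and DESeq2 1.4.5 and the builds mm10 and GRCm38, without saying what each was used for. Estimated counts, normalized counts (a signal close to count times 1 factor per library), FPKM and TPM were deposited by the authors, per the file headers. Estimated counts were not whole for 16.2% to 17.9% of values and were rounded to whole numbers. Normalized counts and FPKM were not used. No source used here gives the strandedness. No molecular identifiers are named, so limits on counts cover counting error only.

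edgeR 4.0.16 (R 4.3.3) compared the groups by a two-sided quasi-likelihood F-test over all 4 libraries, after filterByExpr (minimum count 10) and with TMM factors. Benjamini-Hochberg adjustment ran over 13177 genes, and the SE was obtained by dividing the size of each log2 fold change by the square root of its F. The script was tested on simulated data. The members and the lists were chosen with earlier results of these data known. Named are the 10 members, the 3 genes nearest to Gpihbp1 and, per list, the called genes or up to 3 with the smallest p. Those picked by p averaged 1 CPM or more. Of each cell type list the marker with the highest mean CPM is named too. For any other gene the text says that it was picked later. Spans are those of the deposited table where RefSeq gives the same one. Alternatives were DESeq2 1.42.0, limma-voom (limma 3.58.1), upper quartile and RLE factors, 2 other filters, leaving out each library, a replicate block, and limma with trend on log2 of TPM plus 1 or 0.1.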

Additional observations from a re-analysis of the deposited data

How the results depend on the processing

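The count of called gCap genes, 0 of 10 in edgeR, was 3 with DESeq2 (Gpihbp1, Sema3c and Glp1r) and 1 without a filter on low counts (Gpihbp1). It ranged from 0 to 3 when each library was left out in turn, with the 3 without ZsGreen+ replicate 1. With the replicate number as a block it was 4, adding Adgrl3 (edgeR adjusted p = 0.0112). Over all genes the block raised the calls from 40 to 934. DESeq2 called 330 and the fit without a filter 128, while leaving out single libraries gave 4 to 304. The partner genes called, 0 of 73 in edgeR, numbered 12 with the block and 3 without a filter. Deviations of same-numbered libraries from their group means correlated at 0.455 across genes, and the labels do not say whether a number marks a shared animal or day, so whether the numbers pair the libraries is unknown. The median of the 10 genes lay below 0 in every alternative run, from -0.67 to -0.26. On the TPM scale all genes shifted by 0.12 to 0.13, and the median of the 10 relative to all genes was -0.39 and -0.41, against -0.41 by edgeR. Gpihbp1, Sema3c, Glp1r, Kit, Adgrl3 and Aplnr kept their direction in all 13 alternatives. Plvap turned to 0.03 with upper quartile factors, 0.014 with limma-voom, 0.016 with the stricter filter and with the replicate block, and 0.17 on TPM. Cd93 turned to 0.03 on TPM. When each library was left out in turn, values ranged from -0.303 to 0.338 for Plvap, -0.292 to 0.05 for Cd93, -0.51 to 0.069 for Lpl and -0.21 to 0.588 for Hilpda, and among the partners from -1.10 to 0.671 for Kitl and -0.708 to 0.325 for Cav2. The cause of these changes was not tested. Depth, at 17050673 counts or more per library, limits Glp1r most, with 219 counts in its lowest library.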
